A study of Homo sapiens with 14 samples.

Results

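The loci of 8 genes that specify or mark the trophoblast, the outer lineage of the blastocyst that builds the placenta, were examined for binding of the BAF chromatin remodelling complex and of SOX2 in human embryonic stem cells (hESCs). The genes were GATA2, GATA3, CDX2, ELF5, TP63, GCM1, HAND1 and KRT7. They were chosen by name from the GENCODE annotation of hg38, and each locus was taken as the gene body with 60 kb on each side. These 8 are among 20033 protein-coding genes of the annotation, to all of which the same window was applied as background.

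All samples came from WIBR3, an established hESC line, so the values describe a single line. The cells were kept either in the naïve condition (5i/L/A medium) or in the conventional primed condition, and both were grown on mouse feeder cells. Chromatin immunoprecipitation and sequencing (ChIP-seq) was directed at BRG1, at BRM, at BAF155 and at SOX2. There were 14 samples in all, 4 of them inputs and 10 with a peak list. The naïve lists held 57884 BRG1, 62338 BAF155, 17413 BRM and 1940 SOX2 peaks, and the primed lists 15611 BRG1, 58352 BAF155, 167 BRM and 9290 SOX2 peaks. Both SOX2 lists of a state had identical coordinates and were counted as 1 sample, and every other group had 1 library. No value below therefore has a replicate error, no test was run, and a locus without a peak is a locus without a call at the authors' threshold. Read totals were not analysed here, so list length was not set against depth.

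BAF complexes use ATP to move or evict nucleosomes. Their motor is either BRG1 (SMARCA4) or BRM (SMARCA2), and BAF155 (SMARCC1) belongs to their scaffold. In the embryo, CDX2, GATA2 and GATA3 are transcription factors tied to the first steps of trophectoderm fate. ELF5 and TP63 are associated with the progenitor state of trophoblast, GCM1 drives the formation of the fused syncytiotrophoblast, HAND1 acts in trophoblast differentiation and in the heart, and KRT7 is a keratin used as a general trophoblast marker. Naïve hESCs can be turned into trophoblast more readily than primed ones, whereas SOX2 is a factor of the inner, pluripotent lineage.

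Peaks were first counted in each window, in the order GATA2, GATA3, CDX2, ELF5, HAND1, TP63, KRT7 and GCM1. Naïve BRG1 peaks numbered 10, 7, 8, 2, 7, 6, 7 and 13, and primed BRG1 peaks numbered 2, 5, 2, 0, 0, 1, 3 and 1. Naïve BAF155 peaks numbered 14, 7, 6, 4, 8, 8, 10 and 20, and primed BAF155 peaks numbered 7, 15, 10, 3, 8, 5, 10 and 2. Every locus thus held BAF155 peaks in both states, GCM1 had the most of the 8 in the naïve state and the fewest in the primed state, and GATA3 had the most in the primed state. Naïve BRM peaks numbered 7, 1, 0, 0, 3, 0, 2 and 6. Naïve SOX2 peaks numbered 0, 1, 0, 0, 0, 0, 0 and 2, and primed SOX2 peaks numbered 0, 1, 4, 0, 1, 1, 0 and 1. BRM was absent from the CDX2, ELF5 and TP63 windows, SOX2 of either state was absent from GATA2, ELF5 and KRT7, and the short primed BRM list had no peak in any of the 8 windows. For comparison, the median window of all protein-coding genes held 6 naïve BRG1, 6 naïve BAF155, 1 naïve BRM, 1 primed BRG1 and 5 primed BAF155 peaks, and no SOX2 peak of either state. Primed BRM peaks averaged 0.00744 per window over all genes, so their absence from the 8 windows is not read as a trait of these loci.

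**Figure D1:**
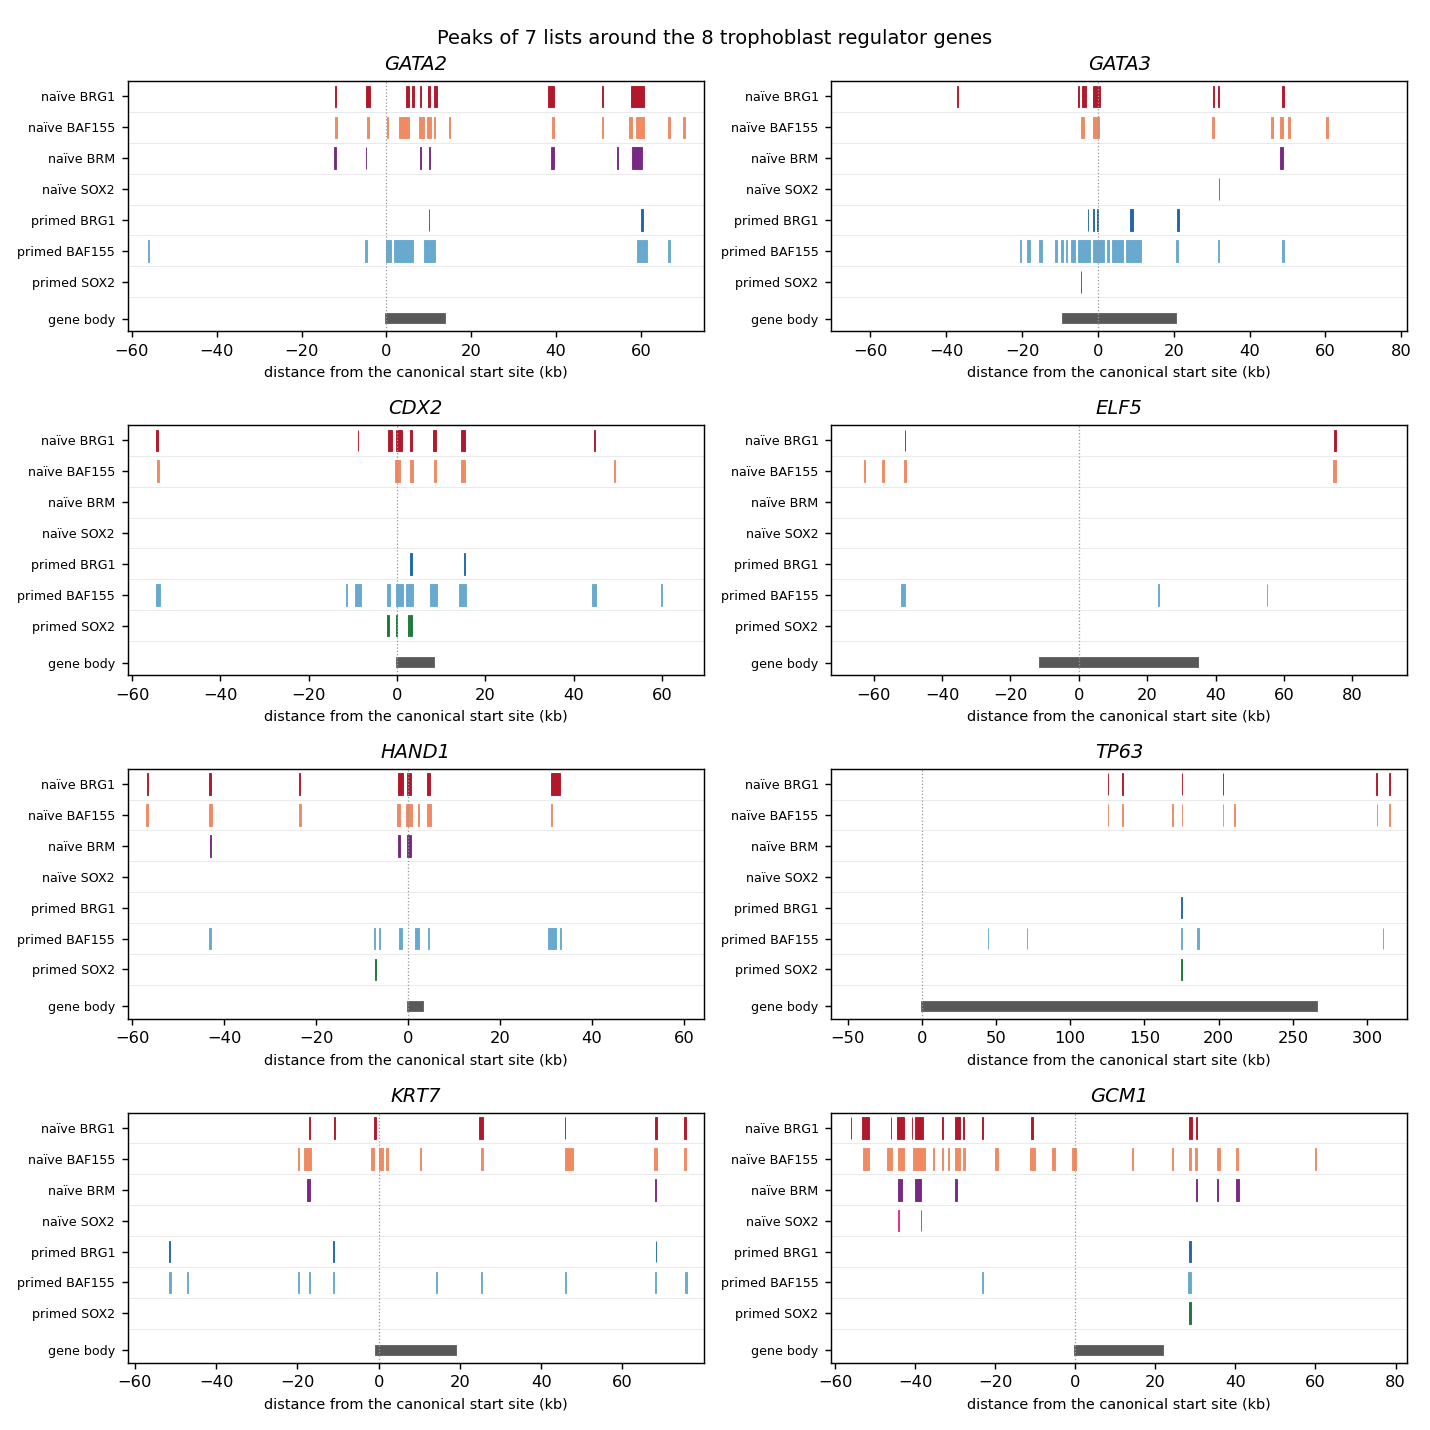
Peaks of 7 lists (rows) at the 8 loci, drawn by their distance in kb from the gene's canonical start site, with downstream to the right and the gene body as a grey bar; the drawn outline makes the narrowest peaks look slightly wider than they are. The GCM1 panel holds 20 naïve and 2 primed BAF155 peaks, and the GATA3 panel 7 and 15.

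The lists differ in length, and in particular the naïve BRG1 list is much longer than the primed one, so the totals were also set against list length. The 8 windows held 60 naïve and 14 primed BRG1 peaks, or 10.4 (exact 95% interval 7.91 to 13.3) and 8.97 (4.90 to 15.0) per 10000 peaks of the list. They held 77 naïve and 60 primed BAF155 peaks, or 12.4 (9.75 to 15.4) and 10.3 (7.85 to 13.2) per 10000. The 19 naïve BRM peaks came to 10.9 (6.57 to 17.0) per 10000, and the 3 naïve and 8 primed SOX2 peaks to 15.5 (3.19 to 45.1) and 8.61 (3.72 to 17.0). The intervals, which cover counting error alone and treat neighbouring peaks as independent, overlap between the states for BRG1, BAF155 and SOX2. They are a description and not a test of a difference between the states. The spread of the peaks over the loci is described next, also without a replicate or a test.

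BRG1 and BAF155 peaks of a state were merged into BAF regions. A region was called naïve-only or primed-only when no region of the other state met the 25% overlap rule, which asks that one of the pair be covered over at least 25% of its length, and common otherwise. The 8 windows held 51 naïve-only, 25 primed-only and 34 common regions. In the same gene order, naïve-only regions numbered 7, 5, 1, 3, 3, 7, 4 and 21, primed-only regions 1, 11, 2, 2, 2, 4, 3 and 0, and common regions 6, 4, 8, 1, 5, 1, 7 and 2. More naïve-only than primed-only regions were found at 6 loci, as at 66.1% of all protein-coding genes. More primed-only regions were found at GATA3 and CDX2, as at 21.2% of all genes. The median difference, naïve-only minus primed-only, was 1.0 over the 8 loci and 2.0 over all genes. As a group, the trophoblast genes therefore lay near the background, and of the summed difference of 26 regions 21 came from a single locus, GCM1.

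**Figure D2:**
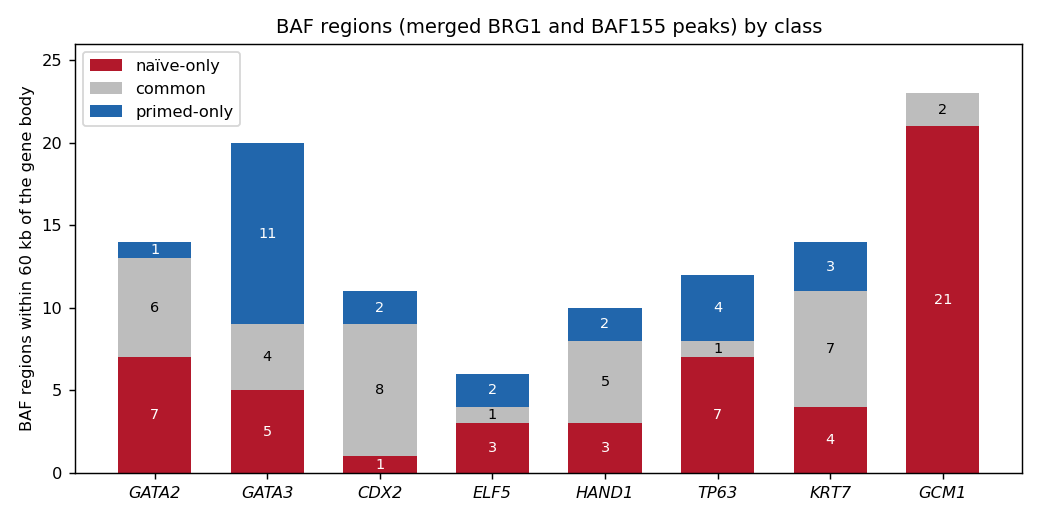
Number of BAF regions at each locus, stacked by class (red naïve-only, grey common, blue primed-only), from 1 library per antibody and state. GCM1 has 21 naïve-only and no primed-only regions, GATA3 has 11 primed-only regions, and 8 of the 11 regions at CDX2 are common.

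Against all genes, GCM1 and GATA3 lay near opposite ends. The difference of 21 at GCM1 was reached or exceeded at 0.819% of protein-coding genes, and the difference of −6 at GATA3 was as low or lower at 2.1%. With the difference taken per 100 kb of window, which was 14.8 at GCM1 and −4.0 at GATA3, these shares were 0.464% and 0.334%. CDX2, with a difference of −1, lay well inside the distribution, since 21.2% of genes were as low or lower. GATA2 had a difference of 6 and TP63 of 3, and ELF5, HAND1 and KRT7 each had a difference of 1.

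**Figure D3:**
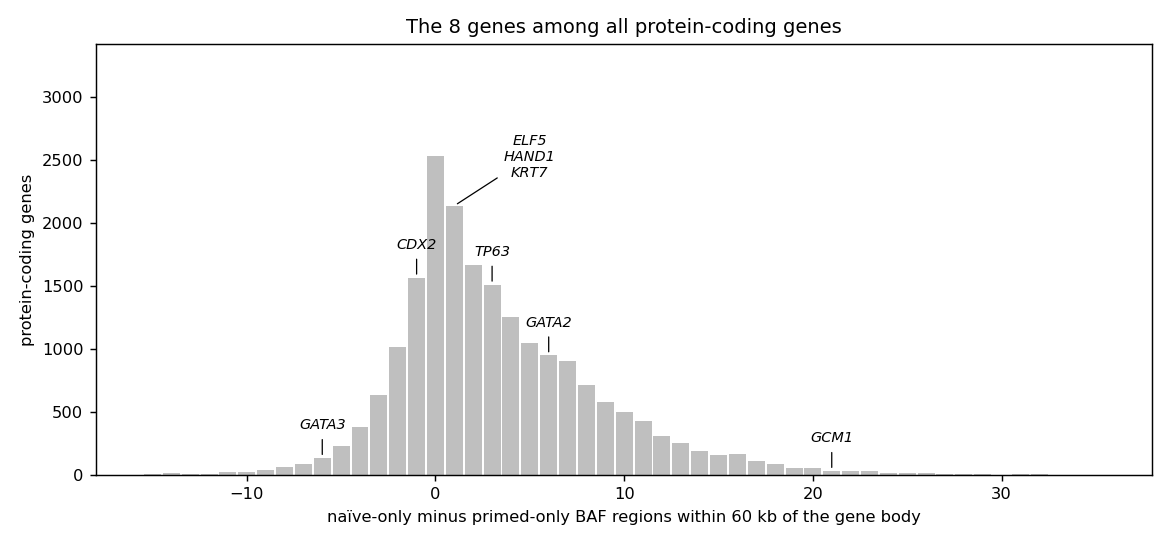
Naïve-only minus primed-only BAF regions per window (horizontal axis) against the number of protein-coding genes with that value (vertical axis), with the 8 loci marked. Values from −15 to 35 are drawn, which leaves out 29 genes. GCM1 stands at 21 in the right tail and GATA3 at −6 in the left, while the other 6 lie between −1 and 6.

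The directions at GATA3 and CDX2 rest on BAF155. When regions were made from BRG1 peaks alone, the differences became 3 at GATA3 and 6 at CDX2, and all 8 loci had more naïve-only regions. The naïve BRG1 list holds 57884 peaks and the primed one 15611, and the share of all genes under this setting is not given. The count of 8 is therefore not read as a trait of these loci. Cutting the longer list of each antibody to the length of the shorter one, by rank, left GCM1 at 18 and GATA3 at −9. It moved CDX2 to −4, HAND1 to −1 and KRT7 to 0. Within 20 kb of the gene bodies ELF5 stood at −2 and HAND1 at −1, so the sign at ELF5, HAND1 and KRT7 was not stable.

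Binding at the start sites was described next. A gene was called BAF-bound at a start when a BAF region lay within 1 kb of any of its annotated transcription start sites (TSSs). In naïve cells 6 of the 8 genes were bound in this way (GATA2, GATA3, CDX2, HAND1, KRT7 and GCM1), against 73.0% of all protein-coding genes. In primed cells 4 were bound (GATA2, GATA3, CDX2 and KRT7), against 72.8%. Those 4 were bound in both states, as were 66.5% of all genes. HAND1 and GCM1 were bound in the naïve state alone, a class that held 6.48% of all genes. None of the 8 was bound in the primed state alone, a class with 6.34% of all genes. ELF5 and TP63 were bound at a start in neither state, as were 20.7% of genes. A naïve BRM peak lay within 1 kb of a start of GATA2 and of HAND1, and of 22.6% of all genes.

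KRT7 is a special case among the 4 genes bound in both states. At its canonical start it had naïve BAF regions, chr12:52231261-52232597 and chr12:52233436-52234226, both naïve-only. Its primed call came from a region of 233 bp, chr12:52247393-52247625, near the start of short non-coding transcripts 14.3 kb downstream. Counted at canonical starts alone, 3 of the 8 genes were bound in primed cells. Thus GATA2, GATA3 and CDX2 carried BAF at the canonical start in both states, whereas KRT7, HAND1 and GCM1 carried it there in the naïve lists alone. This contrast rests on weak calls. The highest naïve −log10 q was 1.67 at the canonical KRT7 start, 2.21 at HAND1 and 2.75 at GCM1, and 2.45 at the starts of CDX2. At the canonical start of GATA2 the highest values were 1.94 in the naïve and 2.92 in the primed lists. At that of CDX2 they were 2.17 and 2.05. With a −log10 q of at least 3, none of KRT7, HAND1, GCM1 and CDX2 kept a naïve BAF call at a start. GATA3 alone then kept a call at its canonical start, and did so in both states. Counted at any annotated start, 2 genes were then bound in naïve cells and 3 in primed cells.

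CDX2 is a homeobox transcription factor (chr13:27960918-27969315, minus strand). At the authors' threshold its locus was the one most shared between the states: 8 of 11 BAF regions were common, and they included every region within 10 kb of a CDX2 start. The naïve calls behind this were weak, since the highest −log10 q of a naïve BAF peak in the window was 2.45. With a minimum of 3, no naïve BAF peak was left there, and the difference was −4. The locus also had the strongest SOX2 site of all 8 loci. This primed SOX2 peak, chr13:27965836-27966484, lies in an intron of CDX2, 3.15 kb downstream of the canonical start, and had a fold enrichment over input of 35.73 and a −log10 q of 131.25 in the authors' values. By fold it ranked 4 of 9290 primed SOX2 peaks. It fell in the common BAF region chr13:27965769-27967208, where the fold was 2.90 for naïve BAF155, 2.57 for naïve BRG1, 4.45 for primed BAF155 and 3.48 for primed BRG1. A further 3 primed SOX2 peaks surrounded the start: chr13:27966648-27966903 in the same region (fold 7.71), chr13:27969330-27969636 at the promoter (fold 6.09) and chr13:27971254-27971670 upstream (fold 8.62). No naïve SOX2 peak was called in the window. The 3 state-specific regions of the window were all nearest to other genes. The naïve-only region chr13:27919872-27920130 (fold 2.48) and the primed-only region chr13:27909379-27909542 (fold 2.90) lay closest to the start of PDX1, and the primed-only region chr13:27980608-27980844 (fold 2.97) to that of URAD.

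The sequence of the intronic site is shown because it carried the highest SOX2 fold at any of the 8 loci, together with the primed SOX2 sites in introns of GATA3 and TP63. The other primed SOX2 sites are not shown. Each line gives 200 bases of the plus strand of hg38, centred on the authors' summit. Capitals mark matches on either strand to the SOX core (CATTGT or CTTTGT), the octamer (ATGCAAAT), or the motifs of KLF factors (GGGNGNGGC), TFAP2 factors (GCCNNNGGC, which reads alike on both strands), GATA factors (AGATAA), TEAD factors (GGAATG) and ZIC factors (CCTGCTG), where N is any base.
CDX2 primed SOX2 site, chr13:27966052-27966251, plus strand: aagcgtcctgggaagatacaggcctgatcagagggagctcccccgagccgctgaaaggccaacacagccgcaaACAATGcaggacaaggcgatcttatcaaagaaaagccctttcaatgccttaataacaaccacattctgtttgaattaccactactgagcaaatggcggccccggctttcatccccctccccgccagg
GATA3 primed SOX2 site, chr10:8050131-8050330, plus strand: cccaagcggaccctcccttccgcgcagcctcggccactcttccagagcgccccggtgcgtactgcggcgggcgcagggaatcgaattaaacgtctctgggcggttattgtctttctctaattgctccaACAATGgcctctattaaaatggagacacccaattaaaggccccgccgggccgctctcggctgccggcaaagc
TP63 primed SOX2 site, chr3:189806208-189806407, plus strand: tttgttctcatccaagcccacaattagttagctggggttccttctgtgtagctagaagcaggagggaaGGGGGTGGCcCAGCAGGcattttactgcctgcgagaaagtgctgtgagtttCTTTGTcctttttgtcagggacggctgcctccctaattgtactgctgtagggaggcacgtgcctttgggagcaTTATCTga

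The 3 windows shown held a SOX core, but they do not stand for the rest, since 3 of the 8 windows held none. Over the 8 primed SOX2 peaks of the loci, 5 held one (62.5%), and over all 9290 primed SOX2 peaks 60.6% did, so the share at the trophoblast genes was close to that of the list. The TP63 window also held KLF, GATA and ZIC matches, which occurred in 7.59%, 12.3% and 13.9% of all primed SOX2 windows. None of the 8 windows contained 32-base words that occur more than once in hg38.

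GATA3 encodes a zinc-finger transcription factor (chr10:8045378-8075198, plus strand). In the primed lists BAF regions covered 19.3 kb of its window, or 12.9%, against 6.68 kb or 4.46% in the naïve lists. The 11 primed-only regions formed a run from chr10:8034150 to chr10:8076056 that spans the gene, and 9 of them lay within 10 kb of a GATA3 start. The widest and strongest of them, chr10:8062115-8065992, was 3878 bp long with a BAF155 fold of 3.86 and lies in the gene body, and it also held a primed BRG1 peak (fold 3.80). Of the other 10, only chr10:8075383-8076056 just past the end of the gene held BRG1 (fold 3.37). The remaining 9 were BAF155 calls without BRG1, with folds between 2.80 and 3.23, below the median of 3.28 of the primed BAF155 list.

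The canonical start of GATA3 itself was bound in both states, in the common region chr10:8053273-8056269. Its folds were 3.13 and 3.19 for naïve BRG1 and BAF155, and 3.92 and 3.96 for primed BRG1 and BAF155. A second common region, chr10:8049384-8052607, held the primed SOX2 peak chr10:8050121-8050355 (fold 9.24, rank 2195 of 9290), which lies in an intron of the longer transcript at −4.45 kb from the canonical start, negative values being upstream. The 5 naïve-only regions were all at least 26.6 kb from any GATA3 start, and the one of highest fold was chr10:8100447-8100723 (3.09). On that distal side, at 31.9 kb, lay the naïve SOX2 peak chr10:8086514-8086723 (fold 4.83, rank 1799 of 1940), and at 48.4 kb the sole naïve BRM peak of the locus, chr10:8102797-8103481 (fold 3.51). Of the 4 common regions, 2 lay at the promoter and 2 on this distal side, so BAF was called in both states at either place, while none of the naïve-only regions fell inside the gene.

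GATA2, the related zinc-finger factor (chr3:128479427-128493201, minus strand), carried 6 common regions beside 7 naïve-only regions and 1 primed-only region. BAF covered nearly the same length in both states, 12.9 kb in the naïve and 11.6 kb in the primed lists. The strongest region of the locus was the common region chr3:128481762-128484308 inside the gene, next to the start of a shorter coding transcript. There naïve BRG1 reached a fold of 4.00, naïve BAF155 5.20 and naïve BRM 4.10, and the primed folds were 3.32 for BRG1 and 3.56 for BAF155. The canonical start was covered by the common region chr3:128492184-128493336, which rested on BAF155 alone in both states (folds up to 3.14). Another common region, chr3:128486759-128491387, spans further starts of the gene. The naïve-only region of highest fold was chr3:128453607-128455036 downstream of the gene (4.38), which also held the strongest BRM peak of the locus, chr3:128453781-128454360 (fold 4.21). The sole primed-only region, chr3:128549278-128549477 (fold 3.19), lay 56.2 kb upstream. Among the 7 naïve-only regions, 2 touched a primed BAF155 peak without meeting the 25% rule, so their class depends on that rule.

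GATA2 had more BRM peaks than any other of the 8 loci. Of its 7 BRM peaks, 3 lay within 5 kb of a start: chr3:128482808-128483264 in the strongest region (fold 4.10), chr3:128485025-128485174 beside it (fold 3.12) and chr3:128497895-128498044 upstream (fold 3.39). One BRM peak, chr3:128438554-128438784 (fold 4.06), lay in no BAF region of the naïve state, and it was the only one of the 19 BRM peaks at the 8 loci of which this was true. Over the whole BRM list 94.3% of peaks lay in a naïve BAF region. The sequence of the BRM peak closest to a GATA2 start is given because it lies in the strongest region of the locus. The window and capitals are as for the SOX2 sites, except that it is centred on the middle of the peak. It held TFAP2 and KLF matches, found in 16.9% and 19.5% of all BRM windows.
GATA2 naïve BRM site, chr3:128482936-128483135, plus strand: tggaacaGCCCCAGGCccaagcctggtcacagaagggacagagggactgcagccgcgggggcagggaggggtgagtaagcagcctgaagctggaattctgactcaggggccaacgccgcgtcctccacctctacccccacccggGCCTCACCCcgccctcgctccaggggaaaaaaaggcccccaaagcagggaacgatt

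GCM1 encodes the transcription factor of syncytiotrophoblast formation (chr6:53126961-53148841, minus strand). Its window held 23 naïve BAF regions covering 17.4 kb, or 12.3% of the window, and 2 primed regions covering 0.992 kb, or 0.699%. Counted as naïve-only plus common regions, which also make 23 here, the windows of 96.0% of all genes held as many or fewer. Of the 21 naïve-only regions, 15 had their midpoint upstream of the start, in a series that reached close to the edge of the window. Only 13 of the 23 naïve regions held BRG1, and the others were BAF155 calls alone. The median fold of the naïve BRG1 peaks in the window was 2.72, against 2.93 over the list, and 4 of the 13 lay above that list median. The promoter of GCM1 was covered by the naïve-only region chr6:53148759-53149573, a BAF155 call (fold 3.24) without BRG1 or BRM. The nearest primed BAF region had its midpoint 23.3 kb from the start. The count includes sequence with copies elsewhere: in 5 of the 21 naïve-only regions more than 50% of the 32-base words in the central 200 bp occur again in hg38, which was true of none of the other 30 naïve-only, 25 primed-only and 34 common regions of the 8 loci. The other 16 at GCM1 were not of this kind, and 16 would still be the largest naïve-only count of the 8. The part of mapping in the 5 repeated regions was not tested.

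The strongest sites at GCM1 lay downstream of the gene, 912 bp apart, and differed in state. The naïve-only region chr6:53118374-53118843 had folds of 4.78 for BRG1, 5.41 for BAF155 and 5.08 for BRM, the last of which ranked 610 of 17413 BRM peaks. Its neighbour, the common region chr6:53119756-53120665, had folds of 2.42 for naïve BRG1 and 2.92 for naïve BAF155, and of 4.60 and 6.27 for primed BRG1 and BAF155. It carried the sole primed SOX2 peak of the locus, chr6:53120049-53120355 (fold 8.09), and no BRM. This 6.27 was the highest BAF155 fold in any of the 8 windows in either state. Folds were computed by the authors against the input of each state and are set side by side here, with no scaling between libraries. Both sites lie about 30 kb from the GCM1 start, at 30.2 and 28.6 kb, and nearer to the start of FBXO9.

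The upstream series of GCM1 also held both naïve SOX2 peaks of the locus, chr6:53187292-53187501 (fold 5.27) and chr6:53192894-53193112 (fold 5.20). Each lay in a naïve-only region with BRG1, BAF155 and BRM, 38.6 and 44.2 kb from the start. The first of these regions, chr6:53186378-53189528, is one of the 5 repeated ones, with 88.2% of the central 32-base words found again in hg38, and its BRM peak reached 85.2%, with a median of 24 copies. They were weak members of their list, ranking 1704 and 1737 of 1940 by fold.

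HAND1 is a basic helix-loop-helix factor (chr5:154474972-154478227, minus strand). Its promoter was bound in the naïve lists by all 3 BAF subunits, in the naïve-only region chr5:154477415-154478617. The folds there were 2.80 for BRG1, 2.82 for BAF155 and 3.23 for BRM, whose peak was chr5:154477657-154478473. Primed BAF155 was called on both sides of the promoter, in the common regions chr5:154475758-154476803 and chr5:154479446-154480697, whose midpoints lie 1.95 and 1.84 kb from the start. The naïve-only promoter region thus lay between shared regions, and the gene would count as bound in both states if the distance to the start were widened to 5 kb. The second common region also held a BRM peak, chr5:154480071-154480432 (fold 3.16). The highest fold among the common regions, 3.81, was at chr5:154520926-154521640, which held the last of the 3 BRM peaks, and the highest among the naïve-only regions, 3.47, at chr5:154534846-154535143. Primed BRG1 had no peak in the window. The primed SOX2 peak chr5:154485165-154485484 (fold 6.30) lay 7.10 kb upstream and overlapped the primed-only region chr5:154485347-154485614 (fold 2.76). It was the sole SOX2 peak of the 8 loci in a primed-only region. The other primed-only region, chr5:154484365-154484620 (fold 2.77), lay beside it.

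TP63 encodes p63, a relative of p53, and has a pair of promoters that give the long and the N-terminally shortened proteins (chr3:189631389-189897276, plus strand). Neither group of starts had a BAF region within 1 kb in either state, and the nearest region was 10.6 kb away. The 12 regions of this window, the longest of the 8 at 386 kb, covered 0.827% of it in the naïve and 0.754% in the primed state. A single region was common, the intronic chr3:189805857-189806913, 16.6 kb downstream of the internal starts. It held all of the primed factors, with folds of 3.81 for BRG1, 4.70 for BAF155 and 8.93 for SOX2 (chr3:189806084-189806499), and naïve folds of 3.01 for BRG1 and 3.02 for BAF155. The naïve-only region of highest fold, chr3:189937651-189938212 (4.54), lay beyond the gene and nearest to the start of P3H2, and within the gene it was chr3:189756494-189756907 (3.89). The highest primed-only fold was 2.91, at chr3:189941736-189942163.

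ELF5, an ETS-family factor (chr11:34478791-34525193, minus strand), had the fewest BAF regions of the 8 loci. There were 6, of which the nearest had its midpoint 21.3 kb from an ELF5 start, and no BRM, SOX2 or primed BRG1 peak was called. Of the 6, 2 were nearest to the ELF5 start and the others to CAT or EHF. The highest folds were 3.22 for the naïve-only region chr11:34438616-34439369, at a promoter near CAT, 3.22 for the primed-only region chr11:34490425-34490595, in an ELF5 intron, and 2.98 for the common region chr11:34564347-34565700.

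KRT7 (chr12:52232520-52252186, plus strand) lies in the type II keratin gene cluster, and 8 of the 14 regions in its window were nearest to KRT7 itself. All 4 naïve-only regions lay in or just upstream of KRT7, the highest of them chr12:52235188-52235638 with a fold of 3.13, and all but 1 were BAF155 calls without BRG1. The strongest common region, chr12:52301099-52301665, was nearest to KRT86, with folds of 4.54 for naïve BRG1, 4.62 for naïve BAF155, 4.53 for BRM (chr12:52301315-52301608), 4.04 for primed BRG1 and 4.03 for primed BAF155. The other BRM peak, chr12:52215558-52216357 (fold 3.34), also lay in a common region. Of the primed-only regions, those of highest fold were chr12:52181572-52182154 and chr12:52186160-52186480 near KRT80, both at 3.41. Of the 7 common regions 3 were nearest to KRT7 and 4 to KRT86.

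**Figure D4:**
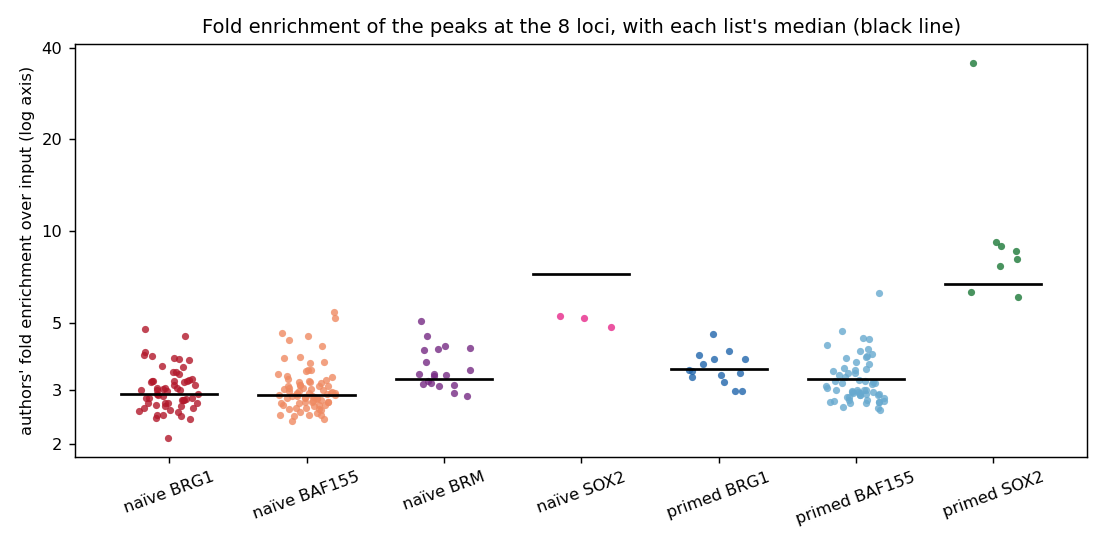
The authors' fold enrichment over input (log axis) of each peak at the 8 loci, by list; black lines are the medians of the whole lists. Most BAF peaks lie between 2 and 5 around their list's median, 1 primed SOX2 peak, the intronic CDX2 site, stands at 35.73, and the 3 naïve SOX2 peaks lie below the median of 7.26.

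Fold values at the 8 loci were set beside those of the whole lists. Median folds were 2.99 for naïve BRG1 against 2.93 over the list, 2.94 for naïve BAF155 against 2.89, 3.39 for BRM against 3.27, 3.49 for primed BRG1 against 3.54 and 3.04 for primed BAF155 against 3.28. Primed SOX2 peaks had a median of 8.36 against 6.73, and the naïve SOX2 peaks of 5.20 against 7.26. Most calls therefore sit at low fold, and a minimum of 4 in every list left 4 naïve-only, 5 primed-only and 2 common regions, with no difference at GCM1 or at GATA3. A −log10 q of at least 3 left 15, 13 and 7, with differences of 5 at GCM1, −3 at GATA3 and −4 at CDX2, and turned KRT7 to −2.

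The makeup of the regions was compared with all regions of the same class. BRG1 was part of 60 of the 87 naïve regions (69.0%, exact 95% interval 58.1 to 78.5%) and 13 of the 60 primed regions (21.7%, 12.1 to 34.2%), where the shares over all regions of the genome were 73.7% and 25.2%. BRM lay in 10 of 51 naïve-only regions (19.6%, 9.82 to 33.1%, against 14.3% of all), in 8 of 34 common regions (23.5%, 10.7 to 41.2%, against 32.1%) and in none of the 25 primed-only regions (interval 0.0 to 13.7%), where 0.405% of all such regions held one. In each of these cases the share over all regions fell inside the interval of the loci. A BRM peak was present in 5 of the 8 windows and in 70.2% of those of all genes.

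SOX2 sat on BAF regions throughout. All 3 naïve and all 8 primed SOX2 peaks lay in a BAF region of their own state, as did 93.0% and 88.4% of the whole lists. Primed SOX2 peaks were present at 5 loci (GATA3, CDX2, HAND1, TP63 and GCM1), against 42.6% of all genes, and naïve SOX2 peaks at GATA3 and GCM1, against 13.2%. By class, primed SOX2 was found in 6 of 34 common regions (17.6%, 6.76 to 34.5%), 1 of 25 primed-only regions (4.0%, 0.101 to 20.4%) and none of the 51 naïve-only regions. Over all regions these shares were 14.0%, 13.5% and 0.465%. For the common and the primed-only class the share over all regions fell inside the interval of the loci, and 3 of the 6 common regions were at CDX2.

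By midpoint, 32 of the 51 naïve-only regions were intergenic (62.7%, against 32.8% of all naïve-only regions), most of them at GCM1, and 9 intronic (17.6%, against 48.9%), most of them at TP63. Of the 25 primed-only regions 12 were intronic (48.0%, against 53.0%). Promoters held 14 of the 34 common regions (41.2%, against 52.2%). In all, 81 of the 110 regions had one of the 8 genes as the nearest protein-coding start.

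For context, 24 other genes of the trophoblast programme were counted in the same way, a list drawn up with earlier results of these data in view. More naïve-only regions were found at 18, more primed-only regions at 4 and equal numbers at 2, where 66.1% and 21.2% of all genes had more naïve-only and more primed-only regions. The median difference was 3.0, against 2.0 over all genes. The largest differences were at TFAP2C (28 naïve-only against 1 primed-only), a factor shared by naïve cells and trophoblast, at ARID3A (26 against 4) and at TEAD4 (17 against 5), the partner of YAP in trophectoderm. The lowest were at NR2F2 (5 against 7), a nuclear receptor, at ITGA6 (4 against 6), a laminin receptor subunit, and at CYP19A1 (6 against 7), the aromatase of the placenta, and ERVW-1 (2 against 3), which encodes the fusogen syncytin-1. BRM peaks were found in 22 of the 24 windows and primed SOX2 peaks in 11, against 70.2% and 42.6% of the windows of all genes. At the starts, 17 were bound in both states, 3 in the naïve state alone, 1 in the primed state alone and 3 in neither, against 66.5%, 6.48%, 6.34% and 20.7% of all genes.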

How the data were processed

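Per the labels and the methods of the study, the authors trimmed the reads, mapped them to hg38 with Bowtie2 2.3.4, removed duplicates (SAMtools 0.1.19 for the single-end BAF libraries, PICARD for the paired-end SOX2 libraries) and called peaks against input with MACS2, broad for BAF subunits and narrow for SOX2. BAF and SOX2 libraries were sequenced in different facilities. Folds of the broad BAF peaks and of the narrow SOX2 peaks come from different calling modes. They are listed together but not compared with each other. The deposited lists give peak positions and, for 7 lists, the authors' fold enrichment over input (a linear ratio) and the −log10 p and −log10 q of each peak. The primed BRM list and the second SOX2 list of each state give positions alone, and whether the SOX2 libraries were pooled was not given in the sources used here. The lowest −log10 q was 1.00 to 1.01 in the BAF lists and 1.31 and 1.35 in the SOX2 lists, so the latter are stricter. The autosomes (1 to 22) and both sex chromosomes were analysed.

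Windows and TSSs came from GENCODE release 44, and a peak or region belonged to a window when at least 1 bp overlapped. Intervals are exact Clopper-Pearson intervals at the 95% level and cover counting error only. They treat neighbouring peaks or regions as independent. Motifs and 32-base words were read from hg38, and the octamer was searched in place of the planned OCT4-SOX2 composite element. The overlap steps were tested on simulated intervals. Analyses used Python 3.11.15, pandas 2.3.3, numpy 2.4.6 and scipy 1.17.1. The members and lists were chosen with earlier results of these data known. Named sites were every SOX2 peak, BRM peaks within 5 kb of a start or of highest fold at a locus, BAF regions at a start (by count where several adjoin), and the region of highest fold of each class. Alternatives varied the window, overlap rule, minimum fold and q, list length, antibody and TSS distance. The sequences of some named sites are not reported here.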

Additional observations from a re-analysis of the deposited data

How the results depend on the processing

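Of 75 recomputed values whose outcome was not fixed in advance, 48 stayed within 1.5 times the reported one and 27 did not. A further 7 could not change, as they drop 1 of a pair of identical SOX2 lists or shorten a list already the shorter. With 20 kb on each side, naïve-only regions fell from 51 to 24, common regions from 34 to 22, BRM peaks from 19 to 10 and naïve SOX2 peaks from 3 to 1. With 50% of both regions covered, primed-only regions were 47 (25 as reported), common regions 13 and SOX2 peaks in a BAF region of their state 1 (11 as reported). A fold of at least 4 left 4 naïve-only, 5 primed-only and 2 common regions, 1 locus with more naïve-only regions (6 as reported), 1 gene bound at a TSS in each state (6 and 4 as reported), 6 BRM peaks and 4 SOX2 peaks in BAF regions. A −log10 q of at least 3 left 15, 13 and 7 regions of the 3 classes and 3 BRM peaks. It left 2 genes bound at a TSS in the naïve state and 3 in the primed state (6 and 4 as reported). With BRG1 alone there were 5 primed-only and 8 common regions, 2 genes bound at a TSS in the primed state and 6 SOX2 peaks in BAF regions. With equal list lengths there was 1 primed SOX2 peak (8 as reported), 3 SOX2 peaks lay in BAF regions, and 0 BRM peaks were left, because the primed BRM list holds 167 peaks. Fewer peaks enter under each of these settings by construction, except under the overlap rule, which moves regions between classes. Counting canonical starts alone was chosen after seeing the data. No paired analysis was possible because the numbered SOX2 lists of a state are identical and every other group has 1 library.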

Other observations

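The promoters of the 8 genes, taken as 300 bases that span the canonical start and lie mostly upstream of it, differed in base composition. The GC content was 72.3% at GATA2, 69.3% at GATA3, 50.3% at CDX2, 52.7% at ELF5, 66.0% at HAND1, 43.7% at TP63, 72.7% at KRT7 and 44.3% at GCM1, against a median of 63.7% over all protein-coding genes. CpG dinucleotides numbered 29 at GATA2, GATA3 and KRT7, 21 at HAND1, 16 at CDX2, 9 at ELF5, 7 at TP63 and 1 at GCM1, against a median of 23. The promoters below both medians were those of ELF5 and TP63, which had no BAF region at any start, of GCM1, bound in the naïve lists alone, and of CDX2, bound in both states.

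Motif shares in the central 200 bp of BAF regions were also counted. In primed-only regions of the 8 loci, the GATA-factor motif AGATAA was found in 6 of 25 (24.0%, against 13.6% of all primed-only regions), GGAATG (TEAD) in 7 (28.0%, against 16.7%) and CCTGCTG (ZIC) in 1 (4.0%, against 13.5%). In naïve-only regions, the corresponding counts were 6 of 51 (11.8%, against 10.3%), 7 (13.7%, against 13.8%) and 3 (5.88%, against 7.13%), and GCCNNNGGC (TFAP2) was found in 8 (15.7%, against 10.7%). The KLF motif GGGNGNGGC went the other way there, with 4 (7.84%, against 12.0%). The SOX core was found in 6 primed-only regions (24.0%, against 34.9%). CCTGCTG was found in 6 of 34 common regions (17.6%, against 8.63%). These are small counts without a test.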
